A study of Aedes albopictus with 6 samples.

Results

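A pair of neighbouring clusters of small RNA tags on scaffold NW_021837489.1 of the Asian tiger mosquito, Aedes albopictus, was compared between the sexes. A tag is a distinct small RNA with its position in the genome. The members were all listed tags that lay wholly within bases 2319772 to 2363743, called the compact cluster here, or within bases 1672947 to 1754471, called the broad cluster. The compact cluster held 425 tags and the broad cluster 246, together 671 of the 22773 tags in the deposited table. Small RNAs had been sequenced from whole bodies of 2-day-old adults, with 3 libraries of virgin females and 3 of males per the labels. No treatment, strain or genotype is given in the labels. The deposited table holds a female and a male count for each tag and no value per library, so no value below has a replicate check, and a difference is one between these 2 columns.

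Small RNAs of this size class are mostly PIWI-interacting RNAs (piRNAs), which guide PIWI proteins to transposons and other transcripts and silence them. Many piRNAs arise from long precursor transcripts of discrete genomic stretches, the piRNA clusters, which are cut stepwise into neighbouring piRNAs. In animals in general they are best known from the germ line, and in Aedes mosquitoes they are also found in body tissues. In whole bodies, fewer cells of a type and less small RNA per cell cannot be told apart.

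Listed tags were 24 to 33 nt long, lay on 686 sequences and were each at least 2-fold apart between the sexes, so tags of like abundance in both sexes do not appear in any sum below. A level is given as TPM, the count per 1000000 counts of the total behind its column, with no length term. These totals were about 2677061 counts in females and 2060045 in males. Brackets give exact 95% intervals, which cover counting error alone, and those of shares take overlapping tags as independent, so they are likely too narrow. A listed 0 can stand for 0 or 1, because the smallest count above 0 was 2, and no fold is given against it.

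The clusters stood apart from their surroundings. Their borders match stretches of tags joined at gaps of up to 10 kb, so an empty flank of over 10 kb on each side was given in advance. On the scaffold, 68.3% of the 983 listed tags lay inside these 2 stretches. They were 565.3 kb apart, and 6 tags were listed between them, with 57 female and 11 male counts in sum. Of these 6 tags, 5 were higher in females, as were 68.3% of all listed tags. The nearest listed tag before the broad cluster ended 307.1 kb away, and the nearest one after the compact cluster began 368.5 kb away. The first and the last tag of the compact cluster had 7 and 10 female counts and those of the broad cluster 8 and 7. All 4 were listed at 0 in males, as were 55.7% of all listed tags. Just outside, the tag 17.9 kb past the end of the broad cluster had 10 female counts and 0 listed in males. The tag that followed the compact cluster, at bases 2732229 to 2732255, had 132 female and 207 male counts, more male counts than any tag within either cluster.

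The compact cluster was the denser one. It spanned 44.0 kb with 9.67 tags per kb, and the broad cluster spanned 81.5 kb with 3.02 tags per kb, a ratio of 3.20. Stacked tags made up part of this difference. When tags that shared at least 1 base were merged to loci, the compact cluster had 213 loci, 4.84 per kb, and the broad cluster had 173, 2.12 per kb, which lowered the ratio to 2.28. Listed tags covered 16.7% of the bases of the compact cluster and 6.37% of those of the broad cluster. The longest stretch without a tag was 3163 bases in the compact cluster and 3282 bases in the broad one. Borders had been drawn from tag positions, so these densities describe the clusters and are no test of them.

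**Figure D1:**
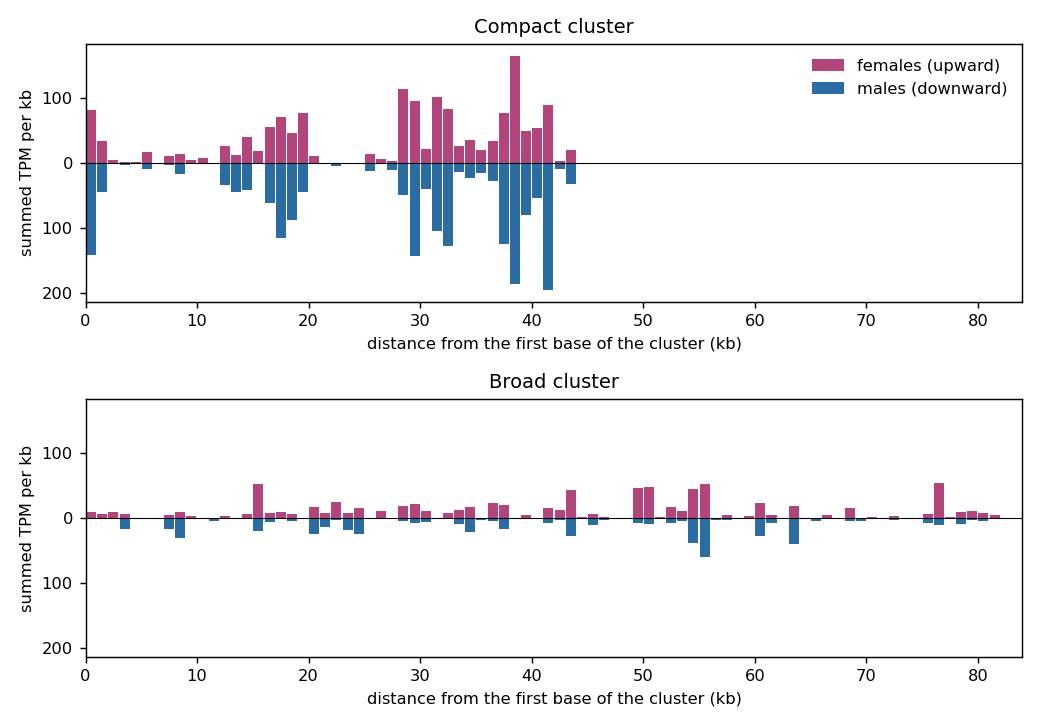
Summed TPM of listed tags per kb of each cluster, plotted against the distance from the first base of the cluster in kb, with females upward and males downward. The compact cluster had its highest kb in females at 165.5 TPM and in males at 195.1 TPM, while the broad cluster reached 54.2 TPM in females and 59.7 TPM in males.

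Summed over the listed tags, the clusters leaned to opposite sexes with the totals behind the TPM columns, and both leaned to females with TMM or RLE factors. The compact cluster had 4165 female counts (4040 to 4293) and 3906 male counts (3785 to 4031), which is 1556 TPM in females and 1896 TPM in males. Its female over male ratio was 0.82 (0.79 to 0.86). The broad cluster had 2281 female counts (2188 to 2377) and 1133 male counts (1068 to 1201), which is 852 TPM in females and 550.0 TPM in males, a ratio of 1.55 (1.44 to 1.67). The rest of the nuclear tags had a ratio of 0.99 (0.99 to 1.0). Which side of 1 the compact cluster fell on rested on the scaling, since its ratio was 1.12 with TMM factors and 1.85 with RLE factors, which shift all ratios by 0.44 and 1.17 on the log2 scale. They multiply every female over male ratio given below by 1.36 and 2.26. The broad cluster stayed higher in females with TMM, RLE and upper quartile factors and with the totals of all listed tags.

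The difference between the clusters does not depend on the scaling, because the totals cancel. The ratio of the compact cluster was 0.53 times (0.49 to 0.58) that of the broad cluster, a difference of -0.92 on the log2 scale. Per kb, females had 35.4 TPM in the compact cluster and 10.5 TPM in the broad cluster, a ratio of 3.39. Males had 43.1 TPM per kb in the compact cluster and 6.75 in the broad cluster, a ratio of 6.39. The density of listed small RNAs thus differed between the clusters in both sexes, and by more in males. With 1 column per sex, no test of this difference over animals or libraries could be run.

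By number of tags, the compact cluster was nearly even and the broad cluster leaned to females. Of the 425 tags of the compact cluster, 227 (53.4%, 48.5 to 58.2) were higher in females and 198 in males, whereas 179 of 246 (72.8%, 66.7 to 78.2) were higher in females in the broad cluster. Over all listed tags 68.3% were higher in females and 31.7% in males, so the share of the broad cluster was near the background and that of the compact cluster was below it. Listed in females alone were 161 tags (37.9%) of the compact and 135 (54.9%) of the broad cluster, against 55.7% of all tags. Listed in males alone were 85 (20%) and 44 (17.9%), against 17.0% of all tags. In one sex alone, whichever it was, 72.7% of all tags were listed. Tags with counts in both sexes were thus more frequent in the compact cluster, 179 of 425 (42.1%), than in the broad cluster, 67 of 246 (27.2%), or in the rest of the nuclear tags, where they made up 26.7%.

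Among tags counted in both sexes the contrast by number of tags was wider. In the compact cluster 66 were higher in females and 113 in males. Of those in the broad cluster, 44 were higher in females and 23 in males. Over all tags counted in both sexes 46.0% were higher in females. By summed counts the contrast was not wider in this set. There the ratio of the compact cluster was 0.56 times that of the broad cluster, against 0.53 times for all their tags. The counting interval of the female over male ratio lay above 1 for 50 tags (27.9%) of the compact and 35 (52.2%) of the broad cluster, against 37.6% of all tags counted in both sexes. It lay below 1 for all 113 male-higher tags of the compact cluster and all 23 of the broad cluster, as it did for every male-higher tag of the list counted in both sexes, 54.0% of that set. The list holds only tags at least 2-fold apart, so these intervals largely repeat the directions and are no separate support for them. The median fold was 3.59 for female-higher and 3.46 for male-higher tags of the compact cluster, 3.97 and 3.16 for those of the broad cluster, and 3.85 and 4.18 in the rest of the nuclear tags. At least 4-fold higher in females were 27 tags (15.1%) of the compact and 22 (32.8%) of the broad cluster, against 22.5% of all tags counted in both sexes. At least 4-fold higher in males were 46 (25.7%) and 9 (13.4%), against 28.8%.

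**Figure D2:**
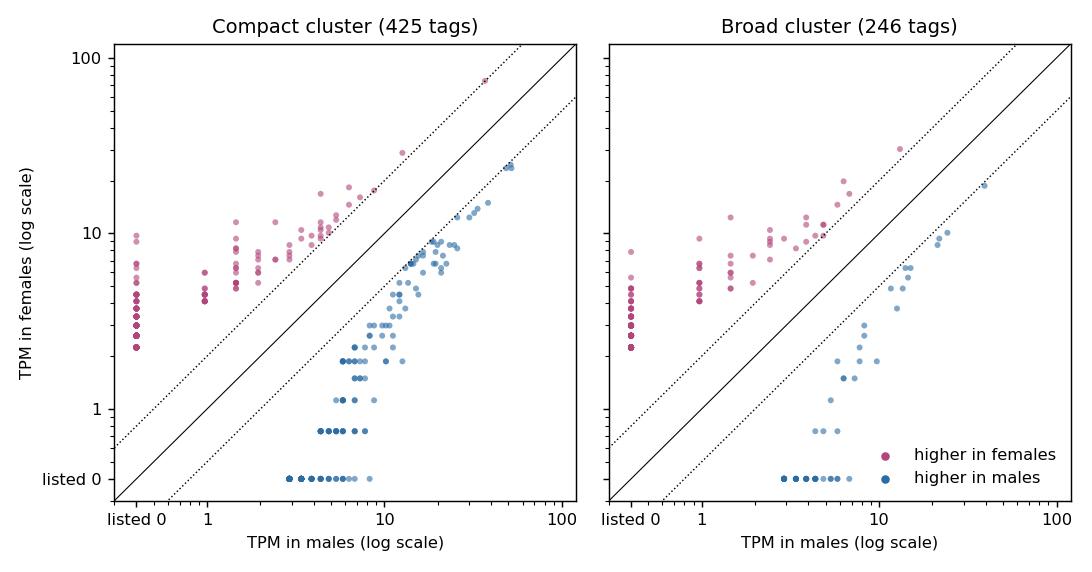
TPM of each tag in females (vertical, log scale) against males (horizontal, log scale), with 425 tags of the compact and 246 of the broad cluster. The solid line marks equal TPM and the dotted lines 2-fold, between which no tag is listed, and tags at the edges are listed at 0 in one sex.

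Direction went with abundance in both clusters. In each of them, every tag with under 10 counts was a tag listed in one sex alone. The split by counts and the shares of one-sex tags given above are therefore not separate results, and both depend on which tags the list holds. Of the tags with under 10 counts in both columns together, 131 of 205 (63.9%) were higher in females in the compact cluster and 117 of 155 (75.5%) in the broad cluster, against 76.7% of all such tags. Of those with 10 or more counts, 96 of 220 (43.6%) were higher in females in the compact cluster and 62 of 91 (68.1%) in the broad cluster, against 56.8% of all such tags. Among tags that reached a TPM of 10 in either sex, 17 of 68 in the compact cluster and 10 of 20 in the broad cluster were higher in females, against 1063 of 2722 (39.05%) in the rest of the nuclear tags. That set had a female over male ratio of 0.62 (0.58 to 0.66) in the compact cluster of 0.95 (0.84 to 1.07) in the broad cluster and of 0.64 (0.64 to 0.65) in the rest of the nuclear tags, so the abundant tags of the compact cluster were near this background and those of the broad cluster above it. With TMM factors the ratios of the clusters were 0.84 and 1.29, and with RLE factors 1.39 and 2.13. In each cluster the abundant tags thus had a lower ratio than the cluster as a whole, as they did in the rest of the nuclear tags. The female total was the larger one, and its part in these shares was not tested.

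In the compact cluster the most abundant tag stood out in females. The 27-nt tag t00014814, at bases 2348389 to 2348415, had 198 counts (74.0 TPM) in females and 76 counts (36.9 TPM) in males, a female over male ratio of 2.01 (1.53 to 2.65). The second in females, 26 nt at 2351771 to 2351796, had 77 counts in females and 26 in males, a ratio of 2.28 (1.44 to 3.71). These were followed by a group of well-counted tags higher in males. The 27-nt tag t00022369, at 2358450 to 2358476, had 63 counts (23.5 TPM) in females and 107 counts (51.9 TPM) in males, a ratio of 0.45 (0.33 to 0.62). The 28-nt tag at 2337444 to 2337471, the third in females, had 66 counts in females and 106 in males, a ratio of 0.48 (0.35 to 0.66). A 29-nt tag at 2360874 to 2360902 had 63 counts in females and 100 in males, again with a ratio of 0.48 (0.35 to 0.67). These 5 tags thus lay close to the 2-fold edge of the list, whichever sex was higher.

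Larger folds in the compact cluster came with fewer counts. Among its tags with a mean TPM of 10 or more, the largest ratio was 3.85 (1.86 to 8.95), for the 28-nt tag at 2358706 to 2358733 with 45 counts in females and 9 in males. Next was 2.90 (1.55 to 5.83), at 2339563 to 2339590, with 49 counts in females and 13 in males. In the other direction, a 29-nt tag at 2349040 to 2349068 had 16 counts in females and 43 in males, a ratio of 0.29 (0.15 to 0.52). A 27-nt tag at 2357616 to 2357642 had 12 counts in females and 32 in males, likewise a ratio of 0.29 (0.14 to 0.58). The tags listed in females alone with most counts, at 2337673 to 2337696 and at 2356225 to 2356251, had 26 and 24 counts. The highest in males alone, at 2349035 to 2349064 and at 2333306 to 2333329, had 17 and 14 counts. Tags listed in one sex alone were therefore weak in this cluster.

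In the broad cluster, the tag with most female counts was 26 nt long and lay at 1728386 to 1728411 (t00032689). It had 81 counts (30.3 TPM) in females and 27 counts (13.1 TPM) in males, a ratio of 2.31 (1.48 to 3.71). A 27-nt tag, t00042944, ended on the same base but began 1 base earlier, at 1728385. It had 27 counts (10.1 TPM) in females and 50 counts (24.3 TPM) in males, a ratio of 0.42 (0.25 to 0.68). Tags that differed by a single base at one end thus fell on opposite sides of the list. Another tag at this place, 24 nt at 1728393 to 1728416, had 23 counts in females and 44 in males, a ratio of 0.40 (0.23 to 0.68).

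Its tag with most male counts, 28 nt at 1736327 to 1736354, had 50 counts (18.7 TPM) in females and 81 counts (39.3 TPM) in males, a ratio of 0.48 (0.33 to 0.68). It was also the third in females. The 27-nt tag at 1681076 to 1681102 had 25 counts in females and 45 in males, a ratio of 0.43 (0.25 to 0.71). The largest female-higher fold of a tag with a mean TPM of 10 or more, 3.14 (1.69 to 6.27), belonged to the 28-nt tag at 1749673 to 1749700, with 53 counts in females and 13 in males. It was followed by a 29-nt tag at 1727269 to 1727297 with 39 counts in females and 12 in males, a ratio of 2.501 (1.28 to 5.25). The 29-nt tag at 1710902 to 1710930 had 15 counts in females and 30 in males, a ratio of 0.38 (0.19 to 0.74), the lowest by the same limit. In females alone, tags at 1727573 to 1727600 and 1752536 to 1752563 had 21 and 15 counts. In males alone, those at 1688468 to 1688495 and 1680892 to 1680921 had 14 and 12 counts. Male counts of the broad cluster were the more concentrated, with 34.5% in its 10 most counted tags of males, against 18.6% of female counts in the 10 of females. For the compact cluster these shares were 16.6% for females and 19.7% for males, and for the rest of the scaffold 24.25% and 41.7%. Fewer tags of the broad cluster carried male counts, with 44 listed in males alone and 135 in females alone.

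With the totals behind the TPM columns, neither cluster leaned one way along its whole length. In windows of 5 kb counted from the first base, 3 of the 9 windows of the compact cluster had a female over male ratio above 1 and 6 a ratio below 1. The lowest, 0.58 (0.51 to 0.65), was the last window, with 41 tags, and the highest, 2.05 (1.03 to 4.38), rested on 4 tags. Of the broad cluster, 13 of 17 windows were above 1 and 4 below. Its lowest, 0.38 (0.26 to 0.55), lay 5 to 10 kb from its first base and held 8 tags with 47 female and 95 male counts. Another window below 1 with its whole interval, at 60 to 65 kb, held 14 tags and had a ratio of 0.63 (0.49 to 0.81). The highest, 4.46 (2.88 to 7.19), lay 25 to 30 kb in, with 13 tags. The median window stood at 0.88 in the compact and at 2.07 in the broad cluster, so most windows of each cluster shared its lean. With TMM factors 6 of the 9 windows of the compact cluster and 15 of the 17 of the broad cluster were above 1, and with RLE factors 9 and 16.

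**Figure D3:**
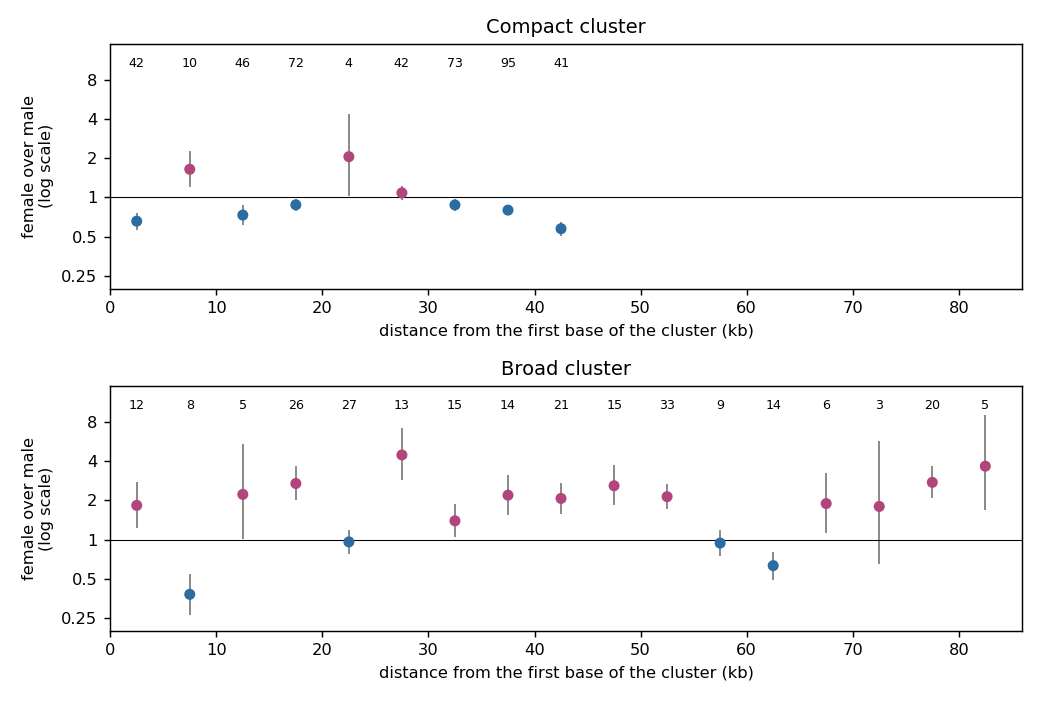
Female over male ratio of summed counts in 5-kb windows (log scale), with exact 95% counting intervals as bars and the number of tags in each window at the top of the panel, against the distance from the first base of the cluster. In the broad cluster 13 of 17 windows lie above 1, and in the compact cluster 6 of 9 lie below 1, of which 3 stay below 1 with TMM and 0 with RLE factors.

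In length both clusters had a median of 27 nt, as had the rest of the nuclear tags. The means were 27.23 nt in the compact and 27.04 nt in the broad cluster, against 27.12 nt in that rest. The list holds only tags of 24 to 33 nt, so a piRNA size was given in advance. The share of tags with 24 to 26 nt was 34.8% (30.3 to 39.6) in the compact and 34.6% (28.6 to 40.9) in the broad cluster. Those with 27 or 28 nt took 42.4% (37.6 to 47.2) of the compact and 46.3% (39.98 to 52.8) of the broad cluster, and those with 29 or 30 nt 17.9% (14.4 to 21.9) and 18.3% (13.7 to 23.7). The clusters differed in the longest class. Tags of 31 to 33 nt numbered 21 of 425 (4.94%, 3.08 to 7.45) in the compact cluster and 2 of 246 (0.81%, 0.099 to 2.91) in the broad one, against 2.40% of the rest of the nuclear tags. Their counts were low, 153 in females and 107 in males for the 21 tags of the compact cluster, and 13 in females and 0 listed in males for the 2 tags of the broad cluster.

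Male-higher tags of the compact cluster were more often 24 or 25 nt long, a narrower class than the shortest one above. Of them 45 of 198 (22.7%, 17.1 to 29.2) were 24 or 25 nt long, and of its female-higher tags 31 of 227 (13.7%, 9.47 to 18.8). In the rest of the nuclear tags the shares were 22.8% of male-higher and 15.9% of female-higher tags. The broad cluster did not show this split, with 11 of 67 (16.4%, 8.49 to 27.5) male-higher and 30 of 179 (16.8%, 11.6 to 23.1) female-higher tags of that length, though the interval of its male-higher share reaches past 22.8%. At 24 to 26 nt the compact cluster had 38.9% (32.1 to 46.1) of its male-higher and 31.3% (25.3 to 37.8) of its female-higher tags. These intervals overlap. At 27 or 28 nt the shares were 37.4% and 46.7%, and at 29 or 30 nt 19.7% and 16.3%. Summed by length, the female over male ratio of the compact cluster was 0.77 (0.72 to 0.84) for tags of 24 to 26 nt. It was 0.91 (0.85 to 0.97) for 27 or 28 nt and 0.68 (0.62 to 0.75) for 29 or 30 nt. The same classes of the broad cluster had ratios of 1.82 (1.60 to 2.08), 1.44 (1.31 to 1.60) and 1.37 (1.15 to 1.62). Each cluster thus kept its lean in these 3 length classes, but with TMM factors the ratios of the compact cluster were 1.05, 1.23 and 0.93, and with RLE factors all 3 were above 1. The 21 tags of 31 to 33 nt of the compact cluster did not share its lean. With the totals behind the TPM columns their ratio was 1.10 (0.85 to 1.42), an interval that includes 1.

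**Figure D4:**
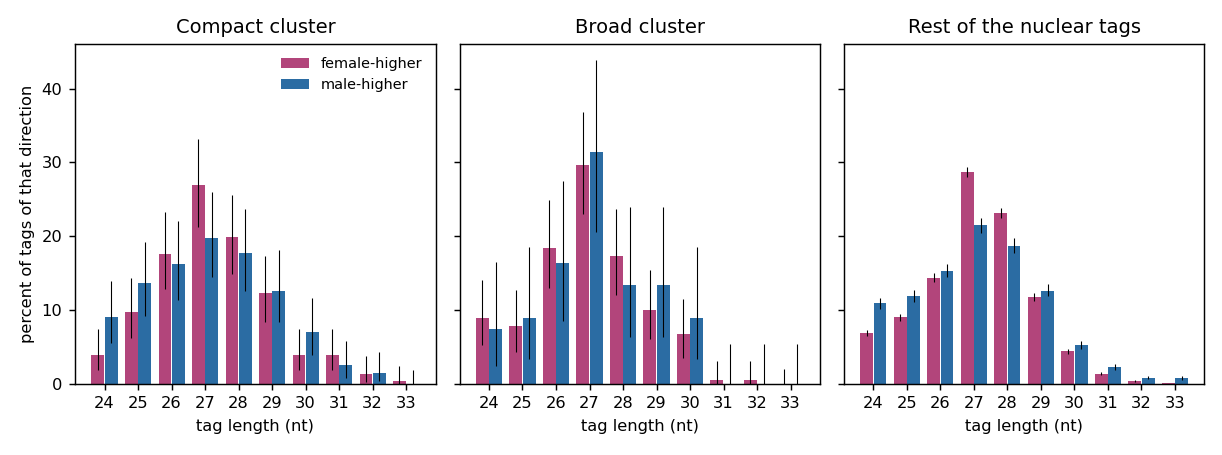
Percent of the female-higher and of the male-higher tags at each length from 24 to 33 nt, in the compact cluster, the broad cluster and the rest of the nuclear tags, with exact 95% intervals as bars. All 3 sets peak at 27 nt, and tags of 31 nt or more are nearly missing from the broad cluster, with 2 of 246.

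Tags of opposite direction often overlapped. In the compact cluster 291 tags (68.5%) shared bases with another listed tag, in 79 loci of 2 or more tags. In the broad one this held for 119 tags (48.4%) in 46 loci, and in the rest of the nuclear tags for 31.7%. Of such loci, 59 of 79 (74.7%) in the compact cluster and 21 of 46 (45.7%) in the broad cluster held female-higher and male-higher tags side by side, against 671 of 2315 (28.98%) elsewhere among nuclear tags. In all 3 sets mixed loci were more frequent among those of 4 or more tags than among those of 2. For loci of exactly 2 tags the numbers were 20 of 34 (58.8%) in the compact cluster, 9 of 27 (33.3%) in the broad cluster and 22.7% elsewhere. The share of female-higher tags, which itself sets how often a pair can be mixed, was nearest to even in the compact cluster. Its part in the mixing was not tested.

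The locus with most tags in the compact cluster shows this arrangement. Between bases 2348980 and 2349132, 153 bases, lay 14 tags, 7 higher in females and 7 higher in males, with 132 female and 176 male counts in sum, a ratio of 0.58 (0.46 to 0.73). Its most counted tag, 27 nt at 2349104 to 2349130, had 24 counts in females and 38 in males. A 29-nt tag with the same start had 12 counts in females and 0 listed in males. In the locus with the second most tags, at 2357551 to 2357646 with 12 tags, the most counted tag had 23 counts in females and 48 in males, and the whole locus a ratio of 0.72 (0.56 to 0.94). The richest loci of the broad cluster held 5 tags each. That at 1687966 to 1688043 had 31 female and 12 male counts, and its most counted tag, at 1687990 to 1688013, was listed in males alone with 12 counts. That at 1688468 to 1688506 had 57 female and 24 male counts, and its most counted tag had 30 counts in females and 8 in males. The locus at 1723640 to 1723682, chosen after its values were seen, had 5 of 5 tags higher in females, with 60 female and 4 male counts, a ratio of 11.5 (4.28 to 43.7).

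**Figure D5:**
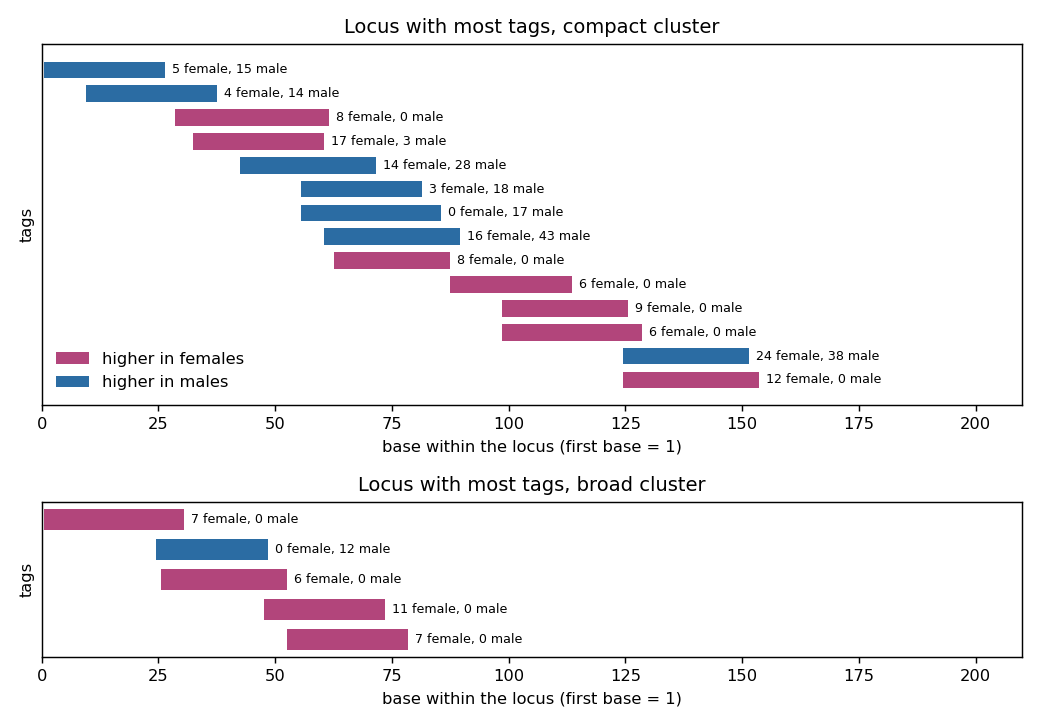
Tags of the locus with most tags in each cluster, drawn as bars at their position within the locus in bases and coloured by the sex in which they were higher, with female and male counts beside each. In the compact cluster 7 of 14 tags were higher in females, and in the broad cluster 4 of 5.

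The clusters also differed in which end overlapping tags shared. In the compact cluster 82 tags (19.3%) began on the same base as another listed tag and 23 (5.41%) ended on the same base as another. Of the broad cluster, 14 (5.69%) shared their start and 31 (12.6%) their end. In the rest of the nuclear tags the shares were 9.51% and 10.7%. As strand was not used here, which of these ends is the 5′ end is not known. Of the 39 shared starts of the compact cluster, 16 (41.0%) joined tags of both directions, and of the 15 shared ends of the broad cluster 7 (46.7%) did. Elsewhere among nuclear tags 12.3% of 899 shared starts and 14.5% of 1037 shared ends did. At the 16 mixed starts of the compact cluster, the longest tag was higher in females in 11 and in males in 5, while elsewhere the longest tag was higher in females in 57 of 111.

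An example is the start at base 2357616, where 3 tags began. The 27-nt tag had 12 counts in females and 32 in males. The 29-nt tag had 22 counts in females and 3 in males, a ratio of 5.64, and the 31-nt tag 19 in females and 5 in males, a ratio of 2.92. At base 2352663 the order was the same, with a 27-nt tag at 0 listed in females and 12 counts in males, a 28-nt tag at 12 in females and 25 in males, and a 31-nt tag at 19 in females and 6 in males. At both starts the shortest tag was higher in males and the longest one in females. These starts were chosen after their values were seen.

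Tags that followed one another without a gap were somewhat frequent. Stepwise cutting of a precursor leaves piRNAs whose start directly follows the end of the one before. When coinciding starts and coinciding ends were counted 1 time, 22 ends of the compact cluster had a start on the next base, against 8 to 15 at distances of 2 to 10 bases, with a mean of 11.1. For the broad cluster 5 had one, against 0 to 2 and a mean of 0.89. In the rest of the nuclear tags the number was 207, against 93 to 136 and a mean of 116, so the surplus was also found outside the clusters. Overlaps of 10 bases, left by the ping-pong cycle in which piRNAs guide the cutting of complementary transcripts, were not above their neighbours in either cluster. There were 7 in the compact cluster, against 3 to 12 at overlaps of 8, 9, 11 and 12 bases, and 2 in the broad cluster, against 1 to 7. In the rest of the nuclear tags there were 147, against 106 to 140, which is above all 4 neighbours. Numbers as small as those of the clusters leave room for a surplus or a lack in either cluster. Strand was not used, so all these numbers mix tags of the same strand with tags of opposite strands. Neither stepwise cutting nor the ping-pong cycle was tested.

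Among the 13 nuclear regions with 200 or more tags joined at gaps of up to 10 kb, the compact cluster ranked 2nd in number of tags and also 2nd in tags per kb, in density behind a region of 7.75 kb on NW_021837267.1 with 34.6 tags per kb. The broad cluster ranked 9th in number and 11th in tags per kb. Tag density in these regions had a median of 3.40 per kb, so the broad cluster was among the sparse ones. By the share of female-higher tags, which ran from 1.12% to 89.2%, the compact cluster ranked 9th and the broad cluster 3rd. By the female over male ratio of summed counts they ranked 7th and 3rd. Both clusters lay within the range of the other large regions in density and in lean, and they differed from each other although they shared a scaffold.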

How the data were processed

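Whole-body RNA was extracted with TRIzol, the small RNAs were cut from a denaturing gel and adaptors were ligated to both ends, per the labels' protocols. Reads were trimmed with Trimmomatic 0.30, per the submitters' processing notes. The aligner, counter, genome build, tag filter and combination of the 3 libraries per sex were not given in the sources used here.

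Counts in the deposited table were whole, with 1 column per sex, taken as female and male from the letters F and M in the column names. The authors deposited TPM values, which equalled the count over a common total per column, with a count of 0 written as 0.01. The authors' deposited log2 column was male over female TPM, with a smallest absolute value of 1.00, and was not used further. The smallest sum of both counts was 6.

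Totals were recovered from the sums of counts and TPM. The planned edgeR test needs a column per library, so none was run and no p-value is given. Counts have exact Poisson, ratios exact conditional and shares Clopper-Pearson intervals (Python 3.11.15, scipy 1.17.1). Those of ratios and of the quotient were tested on simulated Poisson counts, without the 2-fold limit of the list. Those of counts and shares were not tested. Without molecular identifiers a read is not an independent molecule, so intervals cover counting error only. Scaling factors came from edgeR 4.0.16 in R 4.3.3, on a list without unchanged tags.

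Tags were named by rule: in each cluster the 3 with most female and the 3 with most male counts, the 2 largest folds per direction among tags counted in both sexes with a mean TPM of 10 or more, the 2 with most counts in each sex alone, and the most counted tag of the 2 loci with most tags, ties going by position. Members, lists and rules were chosen with earlier results of these data known. Other scalings, count and length limits, merged loci and omission of abundant tags were tried. The split at 10 counts and windows of 5 kb were added after seeing the data. Tag sequences, strand, genes and repeats were not used here.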

Additional observations from a re-analysis of the deposited data

How the results depend on the processing

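Of 125 alternative values, 85 stayed within the counting error of the value reported, or within 1.5 times it for numbers and densities. Some of these could not move. Merging tags to loci leaves summed counts as they are. Because listed tags are at least 2-fold apart, scalings that shift ratios by less cannot change the share of female-higher tags. The tally is therefore no measure of how stable the results are. The cause of the other changes was not tested. The quotient of the clusters stayed below 1, at 0.46 to 0.57, in 6 settings that did not choose tags or windows by their ratio. It was not computed for tags with a TPM of 10, with ratios of 0.62 in the compact and 0.95 in the broad cluster. Nor was it for tags with under 10 counts, with ratios of 1.39 and 2.36. In relative terms both pairs lay nearer together than the main ratios. The female over male ratio of the compact cluster became 1.12 with TMM and 1.85 with RLE factors, 0.88 with the totals of listed tags and 0.78 with upper quartile factors. It was 0.74 for tags with 10 or more counts, 0.62 for tags with a TPM of 10, 0.68 for tags counted in both sexes and at most 0.86 without one 5-kb window. Its share of female-higher tags turned to 43.6%, 25% and 36.9% in those 3 sets and to 49.3% for merged loci, and was 63.9% for tags with under 10 counts. The ratio of the broad cluster was 1.67 with the totals of listed tags, 2.11 with TMM and 3.497 with RLE factors. It was 1.41 with a listed 0 taken as 1 count, 1.30 for tags with 10 or more counts, 1.21 for tags counted in both sexes, 1.86 without its 10 most counted tags and at most 1.69 without one window. It turned to 0.95 for tags with a TPM of 10. Its share of female-higher tags was 50% at that TPM and 65.7% for tags counted in both sexes.

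The quotient was 0.46 without the 10 most counted tags of each cluster and 0.36 without the 4 windows of the broad cluster below 1, a choice that can only lower it. Tags per kb of the compact cluster were 4.84 as loci and 5.003 with 10 or more counts, and those of the broad cluster 1.12 with 10 or more counts. In the compact cluster the share at 24 to 26 nt was 29.9% and at 27 or 28 nt 48.1% by female counts, and at 29 or 30 nt 22.1% and at 31 to 33 nt 2.74% by male counts. In the broad cluster the share at 31 to 33 nt was 0% by male counts, for tags with 10 or more counts and for tags counted in both sexes. Tags with 10 or more counts numbered 220 in the compact and 91 in the broad cluster. Of these, 30 and 18 were listed in females alone, and 11 and 6 in males alone. The same shares over all tags with 10 or more counts were not computed, so these numbers have no background beside them. Joining gaps of 5 kb left both borders as they were, and 20 kb added 1 tag to the broad cluster. No paired analysis was possible because the columns carry no library number, and no library could be left out for the same reason. The depth of 1 column per sex limits single tags, most of which have few counts.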
